A study of Mus musculus with 15 samples.

Results

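Granzymes, perforin and the serpins that inhibit granzymes were examined in 15 mouse samples, each measured on 1 oligonucleotide array. The members were picked by gene symbol, with no threshold on a measured value: 7 granzyme genes (Gzma, Gzmb, Gzmc, Gzmd, Gzme, Gzmk and Gzmm), the perforin gene Prf1, and the inhibitor genes Serpinb9 and Serpinb6b, 10 of the 18193 genes with a probe set of their own. All 10 were on the array, and 8 passed the filter for testing, a signal of at least 100 on at least 3 arrays. Gzmd and Gzme did not pass, and Gzmc passed only through 3 lymphomas, so a count over the tested members is not a count over the family. Lymphoma medians and counts that include Gzmc therefore rest in part on the lymphoma values that admitted it.

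The 9 lymphomas, mPTCL 1 to mPTCL 9, were peripheral T cell lymphomas (PTCL) that grew in C57BL/6 CD3KO recipients given p53KO T cells, and were sorted from the liver. The 3 activated samples were p53 KO T cells activated in vitro, and the 3 resting samples were p53 KO T cells without that step. These normal cells came from C57Bl/6 mice aged 5 weeks. They were sorted from spleen or liver, and the organ of each sample is not stated. All 15 samples were p53-deficient, so none of the comparisons contains cells with p53. The sources used here do not give the stimulus used for activation, its duration or the age of the lymphoma hosts. The growth protocol of the normal samples speaks of fortnightly injections of PBS, a saline buffer, or of heat-killed Streptococcus pneumoniae, and does not say whether these donors had either. As background, mice without CD3 lack T cells of their own but keep B cells and natural killer (NK) cells. Nothing in the labels says that replicates came from separate animals, so p-values measure the spread between these samples, which may be technical in part. In such bulk samples, fewer cells of a type and less RNA per cell cannot be told apart.

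Cytotoxic lymphocytes kill by releasing the content of lytic granules onto a bound target cell. Perforin forms pores in the target membrane, and granzymes, which are serine proteases, enter through them and cleave proteins inside. Granzyme B cuts after aspartate and starts apoptosis through caspases, while granzymes A and K cut after basic residues. The lymphocyte shields itself with intracellular serpins: Serpinb9 inhibits granzyme B, and Serpinb6b inhibits mouse granzyme A. Resting memory and effector T cells, NK cells and activated T cells differ in which of these genes they use.

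The genes lie on 3 mouse chromosomes. Gzme, Gzmd, Gzmg, Gzmn, Gzmf, Gzmc and Gzmb, in that order, are the 7 protein-coding genes of their stretch of chromosome 14, Gzma, Gzmk and both serpins are on chromosome 13, and Gzmm and Prf1 are on chromosome 10. Within the cluster, the promoter windows (250 bases before the gene start to 50 after it, RefSeq, GRCm38.p6) of Gzmd and Gzme were identical at 93.4% of aligned positions, and those of Gzmc and Gzmd at 82.7%. The window of Gzmb matched the other 3 at 43.5% to 46.2% of positions. Gzmd and Gzme, the most alike, were at the floor set for the signal on nearly all arrays, and Gzmb was above it on all 15. Gzmc was at the floor in 2 of 9 lymphomas, 1 of 3 activated and 2 of 3 resting samples, and reached a log2 signal of 9.68 in mPTCL 6. A link between likeness of the windows and signal was not tested.

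The windows of 3 granzyme genes are shown because the comparisons below turn on them, each 5′ to 3′ on the strand of its gene, which is the minus strand for all 3. Capitals mark the letters of searched motifs on either strand.
Gzmb, chr14:56262285-56262584: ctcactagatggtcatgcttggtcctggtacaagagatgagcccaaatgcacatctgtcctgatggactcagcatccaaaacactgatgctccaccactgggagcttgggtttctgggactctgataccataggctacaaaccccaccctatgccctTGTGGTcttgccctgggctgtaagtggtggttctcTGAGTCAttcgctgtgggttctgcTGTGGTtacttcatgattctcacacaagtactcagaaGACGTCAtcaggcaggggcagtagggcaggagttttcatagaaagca
Gzma, chr13:113100932-113101231: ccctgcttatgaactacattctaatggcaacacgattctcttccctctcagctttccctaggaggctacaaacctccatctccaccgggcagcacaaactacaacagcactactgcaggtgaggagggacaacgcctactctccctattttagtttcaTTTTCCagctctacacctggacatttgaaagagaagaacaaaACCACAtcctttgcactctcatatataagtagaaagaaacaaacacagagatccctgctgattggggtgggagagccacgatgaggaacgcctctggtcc
Gzmk, chr13:113180916-113181215: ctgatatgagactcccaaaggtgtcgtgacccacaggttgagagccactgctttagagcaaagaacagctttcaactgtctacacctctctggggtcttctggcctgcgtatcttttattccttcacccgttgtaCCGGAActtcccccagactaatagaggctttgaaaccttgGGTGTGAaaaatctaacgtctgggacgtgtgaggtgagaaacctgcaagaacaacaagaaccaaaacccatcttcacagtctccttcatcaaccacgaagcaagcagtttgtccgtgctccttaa

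The motifs searched were short letter strings of factors that act in cytotoxic lymphocytes, and a match is a description of letters, not a site. The Runx letters TGTGGT were in a window of 8 of 10 members and in 16.8% of 32851 promoter windows of the same length. The 8 include Gzmc, Gzmd and Gzme, whose windows were 82.7% to 93.4% identical to each other and so are not independent. They also include Gzmm, which has 2 windows and the Runx letters in only 1. The count is thus not comparable with the share of single windows, and enrichment was not tested. In Gzmb they occur on 2 occasions, beside the AP-1 letters TGANTCA at position -58 (the first base of the gene is position 0), found in 7.81% of windows, and the CRE letters TGACGTC, read on the other strand, at position 3, found in 3.21%. Gzmc was the other member with the CRE letters. Gzma holds the Runx letters at position -50 and the NFAT letters GGAAAA at position -92, both read on the other strand, and the NFAT letters were in 3 of 10 members and in 23.4% of all windows. Gzmk holds the Ets letters CCGGAA at position -115, in 14.9% of all windows and in no other member, and the T-box letters TCACACC, read on the other strand, at position -75. The T-box letters were in Gzmk and in 1 of the 2 windows of Gzmm, against 3.98% of all windows. No 2 of these motifs overlap in the printed windows.

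All arrays were scaled to the same trimmed mean signal, 500. Arrays correlated at 0.761 to 0.924 among lymphomas, at 0.970 to 0.974 among activated samples and at 0.968 to 0.976 among resting samples. With 3 arrays in each normal group, precision is limited. The mean of 10 T cell markers was 8.44 to 11.20 on the log2 scale in lymphomas, below 12.59 to 12.66 in activated cells and 12.80 to 12.96 in resting cells. Cd3e, a defining part of the T cell receptor complex, was at 5.69 in mPTCL 3, at the floor of 5 in mPTCL 4 and at 9.03 in mPTCL 5, and at 10.85 to 12.28 in the other 6. The mean of 10 neutrophil markers was 5.67 to 11.73 in lymphomas, 5.65 to 5.99 in activated cells and 5.74 to 5.97 in resting cells, with mPTCL 1, 2, 4, 5, 8 and 9 more than 2 log2 units above every normal array. B cell markers were more than 1 log2 unit above every normal array in mPTCL 1 and mPTCL 5. The 8 NK cell markers on the array summed to a signal of 972 to 49993 in lymphomas, 17759 to 25524 in activated cells and 9738 to 12424 in resting cells. Klrd1 was by far the brightest of them in normal cells, at a mean log2 signal of 14.18 in activated and 13.22 in resting cells. The sums on normal arrays therefore follow Klrd1 and do not measure NK cells. Klra1 was at the floor on all 15 arrays, and Ncr1 on those of mPTCL 4, 5 and 9, of all 3 activated and of 1 resting sample. Tyrobp, an adaptor of NK and myeloid cells, averaged 11.15 in lymphomas, 5.24 in activated cells and 7.21 in resting cells, and Fcer1g, another such adaptor, 9.93, 7.04 and 7.43. NK cells and mast cells also make granzymes, and the part of such cells in the values below was not tested.

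**Figure D1:**
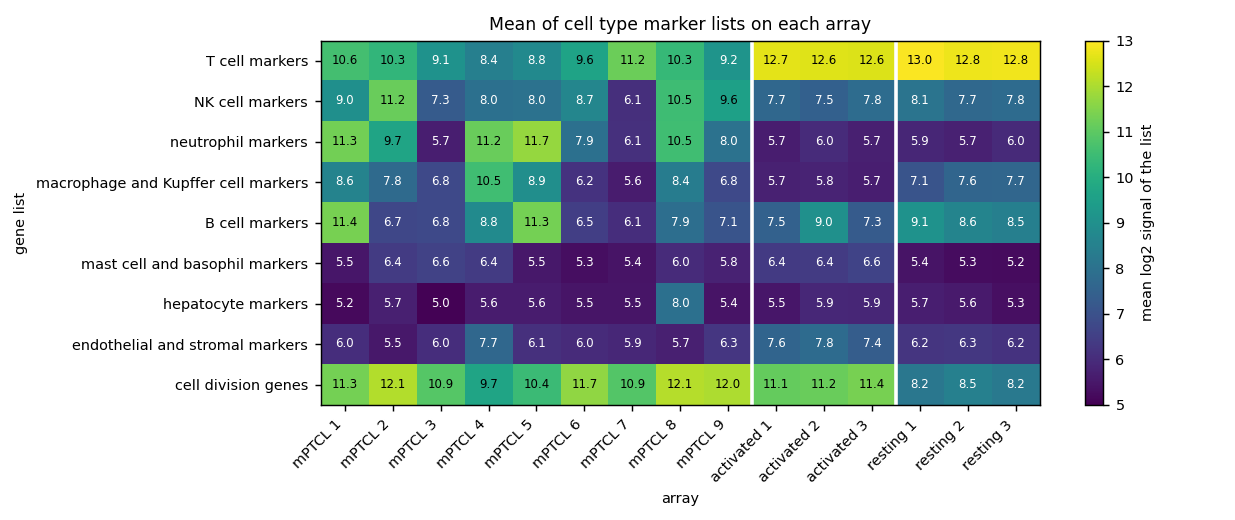
Mean log2 signal of each marker list (rows) on each array (columns), with the value printed in each cell and lighter colours for higher means. Neutrophil marker means are high in 6 lymphomas (8.00 to 11.73), and T cell marker means are lower on all 9 lymphoma arrays (8.44 to 11.20) than on the 6 normal arrays (12.59 to 12.96).

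Gzma, the gene of granzyme A, was the member that exceeded every normal array in the most lymphomas. Its log2 signal was 10.45 at the lowest, 14.99 at the median and 15.59 at the highest of the lymphomas, 11.72, 13.65 and 12.39 in the 3 activated samples, and 10.44, 10.71 and 9.97 in the 3 resting samples. In 7 lymphomas it lay above every normal array, at 14.94 to 15.59. mPTCL 1, at 13.35, lay within the range of activated cells, and mPTCL 5, at 10.45, within that of resting cells. Group means were 14.48 ± 1.65 in lymphomas (SD, n = 9), 12.59 ± 0.98 in activated cells (n = 3) and 10.37 ± 0.37 in resting cells (n = 3). Activated cells exceeded resting cells by 2.22 ± 0.47 log2 units (SE; 4.65-fold, limma adjusted p = 0.0147). Lymphomas exceeded resting cells by 4.11 ± 0.87 (17.3-fold, limma adjusted p = 0.00663), with 8 of 9 above the highest resting array. The step between lymphomas and activated cells, 1.89 ± 0.90, did not pass (limma adjusted p = 0.150), and it did without mPTCL 5 alone (2.40, adjusted p = 0.00394). That was the 1 call gained among 12 fits that each left out an array. mPTCL 5 had the lowest Gzma of the tumours, so the fit is no independent evidence on Gzma.

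Gzmb, the gene of granzyme B, was raised in all activated samples and in a subset of tumours. Its log2 signal was 6.89 at the lowest, 11.51 at the median and 15.17 at the highest of the lymphomas, 12.25, 13.77 and 12.96 in activated cells, and 8.10, 8.95 and 7.79 in resting cells. mPTCL 2, 6, 7 and 9, at 14.33 to 15.17, exceeded every activated array. mPTCL 1, 3 and 8, at 10.41, 10.81 and 11.51, lay between the resting and the activated range, and mPTCL 4 and 5, at 6.89 and 7.59, below the lowest resting array. The tumours thus spanned a 311-fold range of signal, against 2.88-fold among activated and 2.23-fold among resting samples. Activated cells exceeded resting cells by 4.71 ± 0.44 (26.2-fold, limma adjusted p = 8.48e-04). Lymphomas differed from resting cells by 3.52 ± 1.65 (limma adjusted p = 0.156) and from activated cells by -1.19 ± 1.66 (adjusted p = 0.638), and neither difference passed.

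Gzmk, the gene of granzyme K, a protease of memory T cells, varied more between tumours than any other member. Its log2 signal ran from the floor of 5 in mPTCL 3 through a median of 12.81 to 14.77 in mPTCL 2, against 9.52, 9.39 and 9.66 in activated cells and 8.74, 9.23 and 8.47 in resting cells. In 6 lymphomas (mPTCL 1, 2, 6, 7, 8 and 9) it was 12.19 to 14.77, above every normal array. mPTCL 5, at 8.84, was within the resting range, and mPTCL 4, at 6.92, and mPTCL 3 below it. The highest tumour signal was at least 870-fold that of mPTCL 3. Activated cells lay 0.71 ± 0.22 above resting cells, which had an adjusted p of 0.0478 by limma but was under 2-fold. Lymphomas differed by 2.68 ± 1.90 from resting cells (limma adjusted p = 0.348) and by 1.97 ± 1.91 from activated cells (adjusted p = 0.482), and neither passed.

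The 3 lymphomas with Gzmk within or below the resting range, mPTCL 3, 4 and 5, were also those with low Cd3e. Leaving them out for Cd3e, a choice made after the data were seen, is therefore no independent evidence on Gzmk. Without them Gzmk was 4.96 higher in the other 6 lymphomas than in resting cells (limma adjusted p = 1.50e-04) and 4.25 higher than in activated cells (adjusted p = 3.74e-04). Gzma then exceeded resting cells by 4.59 (limma adjusted p = 7.34e-05) and activated cells by 2.37 (adjusted p = 0.00607). Gzmb and Serpinb6b exceeded resting cells by 5.20 (limma adjusted p = 0.00369) and 1.18 (adjusted p = 0.0422). Of the tumours left out, mPTCL 4 and 5 had the lowest Gzmb (6.89 and 7.59) and the lowest Serpinb6b (10.67 and 8.07) of all lymphomas. mPTCL 5 also had the lowest Gzma (10.45). These calls are therefore no independent evidence on those members either. The same fits called 2594 of all genes against resting cells and 2956 against activated cells, where 1651 and 1824 were called with all 9 lymphomas.

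Gzmm, the gene of granzyme M, a protease that cuts after methionine and leucine and is prominent in NK cells, took another order of tumours. Its log2 signal was at the floor in mPTCL 4, 9.43 at the median and 13.04 in mPTCL 1, against 8.99, 8.11 and 8.77 in activated cells and 9.55, 9.35 and 9.24 in resting cells. mPTCL 7 had 12.91, and mPTCL 6 and 8 had 10.45 each, all above the normal arrays. mPTCL 9, among the highest for Gzmb and Gzmk, had 6.60, and mPTCL 3 and 5 had 5.53 and 6.95. Activated samples were all below resting samples, by 0.76 ± 0.25 (limma adjusted p = 0.0598), which did not pass. Lymphomas differed by -0.45 ± 1.59 from resting cells (limma adjusted p = 0.872) and by 0.31 ± 1.60 from activated cells (adjusted p = 0.909), with tumours on either side of both.

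The remaining granzymes of the chromosome 14 cluster gave little or no signal. Gzmc reached 9.68 in mPTCL 6, 7.12 in mPTCL 2, 6.72 in mPTCL 4 and 6.63 in mPTCL 1, and at most 5.76 in the other 5 lymphomas, 6.02 in activated cells and 5.27 in resting cells. None of its comparisons passed (limma adjusted p = 0.401, 0.281 and 0.426 for activated against resting, lymphoma against resting and lymphoma against activated). Gzmd was at the floor on all 15 arrays, and Gzme on all but those of mPTCL 2 (6.19) and mPTCL 6 (5.38). Of 3 further granzymes outside the member list, Gzmf reached 7.06 in mPTCL 6, Gzmg was at the floor throughout, and Gzmn was above it in activated samples 1 and 3 alone (5.53 and 5.95). mPTCL 6 and mPTCL 2 thus had the highest Gzmc, Gzme and Gzmf among the tumours, and they were also the tumours with the highest Gzmb. The Gzmf of mPTCL 2, at 5.33, was below that of resting sample 2, at 5.45. The Gzme signals, 73.1 and 41.5, come from a probe set that can match several transcripts. Values so near the floor cannot show that these genes go together with Gzmb. A probe set annotated to both Gzme and Gzmd, which cannot be given to either gene, reached a signal of at most 49.5.

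**Figure D2:**
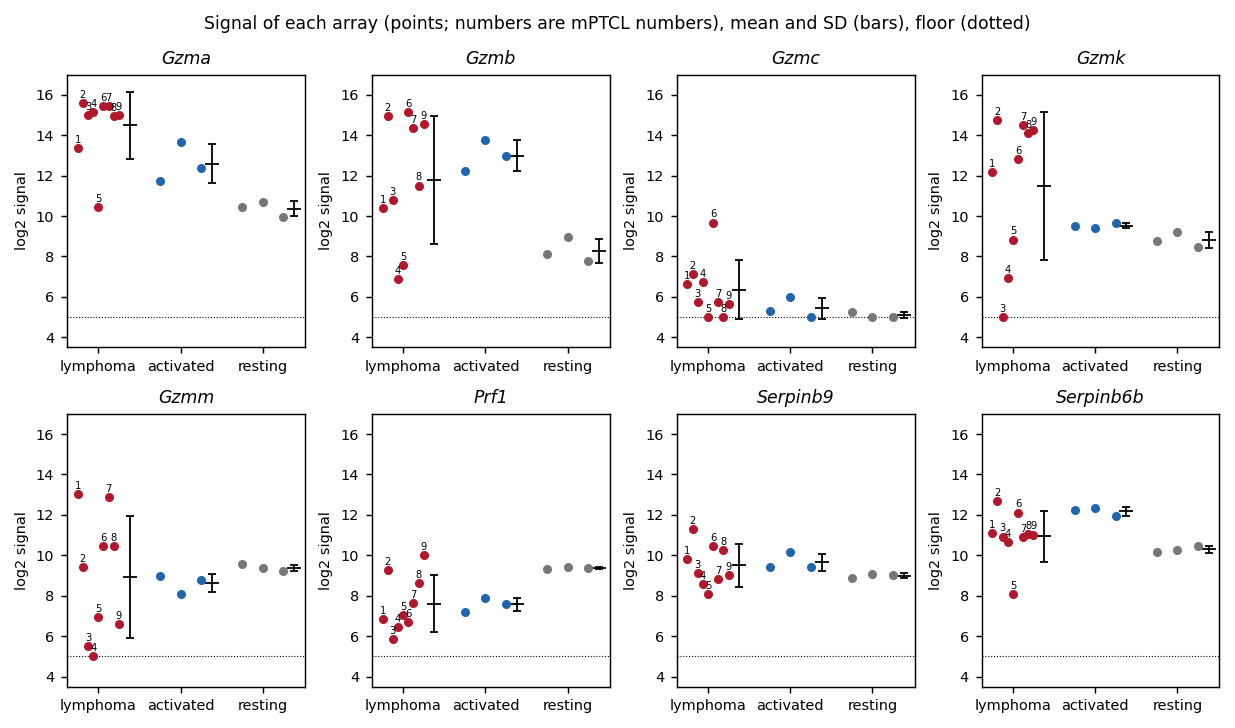
Log2 signal (vertical axis) of the 8 tested members on each array, with lymphomas, activated and resting samples side by side; points are arrays, numbers are mPTCL numbers, bars give the mean and SD and the dotted line is the floor of 5. Tumours spread from 6.89 to 15.17 for Gzmb and from 5 to 14.77 for Gzmk, against 12.25 to 13.77 for Gzmb and 9.39 to 9.66 for Gzmk in activated samples and 7.79 to 8.95 and 8.47 to 9.23 in resting samples.

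Prf1, the gene of perforin, moved against Gzma and Gzmb on activation. Its log2 signal was 7.22, 7.90 and 7.61 in activated cells, below 9.33, 9.44 and 9.35 in resting cells, a fall of 1.80 ± 0.21 log2 units (3.48-fold lower, limma adjusted p = 0.00187). The lymphomas ran from 5.87 in mPTCL 3 through a median of 7.05 to 10.01 in mPTCL 9. In 8 of 9 lymphomas Prf1 lay below every resting array, and in mPTCL 9 above them. mPTCL 2, at 9.28, was just under the resting range, and mPTCL 1, 3, 4, 5 and 6, at 5.87 to 7.05, were below the activated range. The difference between lymphomas and resting cells was -1.76 ± 0.75 (limma adjusted p = 0.121), which did not pass, and without mPTCL 9 it was -2.06 (adjusted p = 0.0396). That was the 1 call gained among 12 fits that each left out an array. mPTCL 9 had the highest Prf1 of the tumours, so the fit is no independent evidence on Prf1. Lymphomas and activated cells differed by 0.04 ± 0.76 (adjusted p = 0.978), an interval of more than 1 log2 unit to either side at 2 SE.

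Prf1 has 2 probe sets, and they disagree. The brighter, used above, can match several transcripts. The dimmer had a signal of 43.2 to 94.8 in lymphomas, 66.2 to 113 in activated cells and 51.0 to 90.7 in resting cells, with overlapping groups. The 2 correlated at -0.21 over the 15 arrays, and with their mean in place of the brighter set the fall on activation was 0.62 on the log2 scale and was not called (limma adjusted p = 0.0766). All statements on Prf1 therefore rest on 1 probe set.

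**Figure D3:**
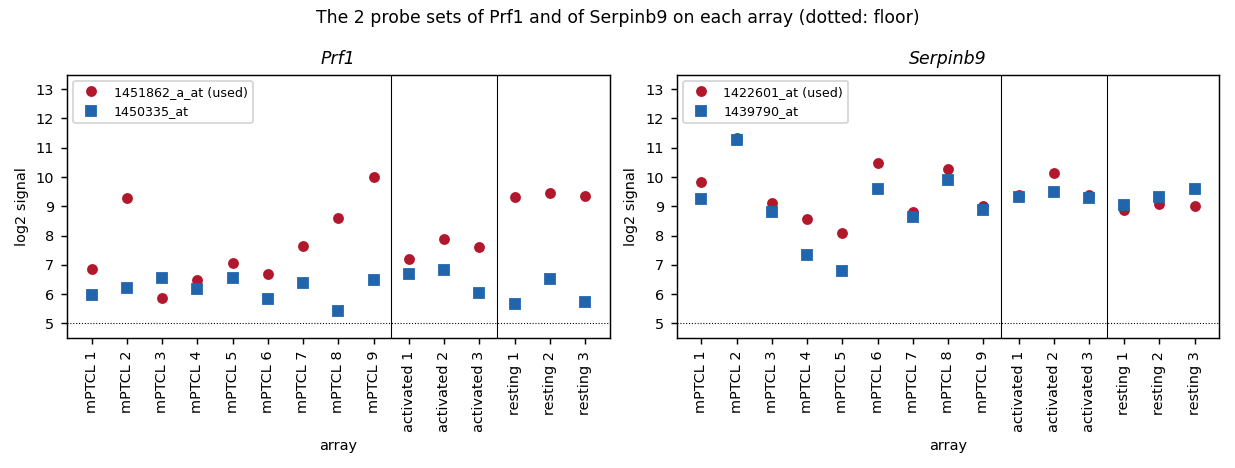
Log2 signal (vertical axis) of the 2 probe sets of Prf1 (left) and of Serpinb9 (right) on each of the 15 arrays, with lymphomas, activated and resting samples from left to right and the dotted line at the floor. For Prf1 the used set varies while the other stays flat (r = -0.21), and for Serpinb9 the 2 sets move together (r = 0.86).

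Serpinb6b, the granzyme A inhibitor gene, was raised in every activated sample. Its log2 signal was 12.25, 12.34 and 11.94 in activated cells, against 10.15, 10.29 and 10.48 in resting cells, a difference of 1.87 ± 0.14 (3.67-fold, limma adjusted p = 3.71e-04). Lymphomas ran from 8.07 in mPTCL 5 through a median of 11.03 to 12.69 in mPTCL 2, and 8 of 9 exceeded the highest resting array. Only mPTCL 2 exceeded the activated range, and mPTCL 6, at 12.12, lay within it. The differences of 0.65 ± 0.67 from resting cells (limma adjusted p = 0.531) and of -1.23 ± 0.67 from activated cells (adjusted p = 0.209) did not pass. mPTCL 5 thus had the lowest Gzma and the lowest Serpinb6b of the tumours, and mPTCL 2 the highest of each.

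Serpinb9, the granzyme B inhibitor gene, varied least of the 8 tested members between tumours on the probe set used. Its log2 signal ran from 8.10 in mPTCL 5 through 9.10 to 11.32 in mPTCL 2, a 9.35-fold range, against 9.40, 10.14 and 9.40 in activated cells and 8.87, 9.09 and 9.02 in resting cells. All activated samples lay above all resting samples, by 0.66 ± 0.23, which did not pass (limma adjusted p = 0.0705). Lymphomas differed by 0.51 ± 0.57 from resting cells (limma adjusted p = 0.564) and by -0.15 ± 0.58 from activated cells (adjusted p = 0.875). Its other probe set followed the used set at a correlation of 0.86 over 15 arrays, but had activated samples at a signal of 626 to 726, within 526 to 773 in resting samples. On that other set the lymphomas ran from a signal of 110 to 2452. Their SD on it was 1.33 log2 units, above the 1.27 of Serpinb6b, so the ranking as least variable depends on the probe set.

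The comparison of activated with resting cells asks what activation in culture does to these genes in normal p53-deficient cells. Of the 8 tested members, Gzma, Gzmb and Serpinb6b rose and Prf1 fell, against 8.45% of all 11902 tested genes called higher and 4.23% called lower (12.7% in either direction). Groups did not overlap for 7 of the 8, which was so for 46.6% of all genes. The median change was 0.68 over the tested members and 0.02 over all genes. The call of Gzma was lost without resting replicate 3 (2.02, adjusted p = 0.0569), and all 4 calls were lost when the lymphomas entered the same fit (adjusted p = 0.222 to 0.324), where the spread between tumours sets the error. Macrophage markers moved in the same comparison, with 7 of 10 tested lower in activated cells, and mast cell markers, with Cpa3 4.18 ± 0.39 higher (limma adjusted p = 8.65e-04) and Cma1 1.70 ± 0.30 higher (adjusted p = 0.00767) among 4 tested. Of 8 tested endothelial and stromal markers 5 were higher and 0 lower in activated cells, with a median of 1.89, among them Dcn (3.42) and Sparc (2.67), both at the floor on all 3 resting arrays, and Col3a1 (2.55). The part of such cells in the granzyme values was not tested.

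The comparison of lymphomas with resting cells asks how the tumours differ from unstimulated T cells of the same genotype. Gzma was the single call among 8 tested members, against 13.9% of all genes called in either direction, 7.03% called higher and 6.84% called lower. Groups overlapped for each of the 8, while they did not for 19.4% of all genes. The median difference was 0.96 over the tested members and -0.02 over all genes, and 2 of the 8 had an unadjusted p under 0.05. Gzmc, at 1.27, lies next to that median and passed the filter only through 3 lymphomas. The median therefore depends in part on the lymphoma values that admitted Gzmc. Without the 6 lymphomas high in neutrophil markers, the other 3 exceeded resting cells in Gzmb by 5.16 (limma adjusted p = 0.0309) and differed in Prf1 by -2.64 (adjusted p = 0.0213). These 3 include mPTCL 6, with the highest Gzmb (15.17) and a neutrophil mean of 7.94, just under the 8.00 of mPTCL 9, which was left out. Its neutrophil markers summed to 11229, against at most 733 on normal arrays. The 6 left out include mPTCL 9, 2 and 8, with the highest Prf1 of the tumours (10.01, 9.28 and 8.61). They also include mPTCL 4 and 5, with the lowest Gzmb (6.89 and 7.59). Neither fit is therefore independent evidence on Gzmb or Prf1.

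The comparison of lymphomas with activated cells asks whether the tumours differ from dividing T cells of the same genotype. None of the 8 tested members was called by limma, and 0 had an unadjusted p under 0.05, against 15.3% of all genes called, 7.04% higher and 8.28% lower. Groups overlapped for each of the 8, while they did not for 22.1% of all genes. The median difference was 0.17 over the tested members and -0.08 over all genes. Gzmc (0.93) is among these members and passed the filter through lymphomas alone. Standard errors of 0.58 to 1.91 log2 units leave wide intervals, so the absence of calls does not show that the levels are alike. Without the 2 lymphomas high in B cell markers Gzma was called (2.63, adjusted p = 9.62e-04), as it was without the 6 high in neutrophil markers (2.70, adjusted p = 0.0170). The 2 high in B cell markers, mPTCL 1 and 5, had the lowest Gzma of the tumours (13.35 and 10.45), and mPTCL 5 is left out in both fits, so neither is independent evidence on Gzma. These 2 lymphoma comparisons share the lymphoma arrays, and RNA amplification is described in the labels for the normal cells and not for the lymphomas, so handling and group cannot be told apart in them.

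**Figure D4:**
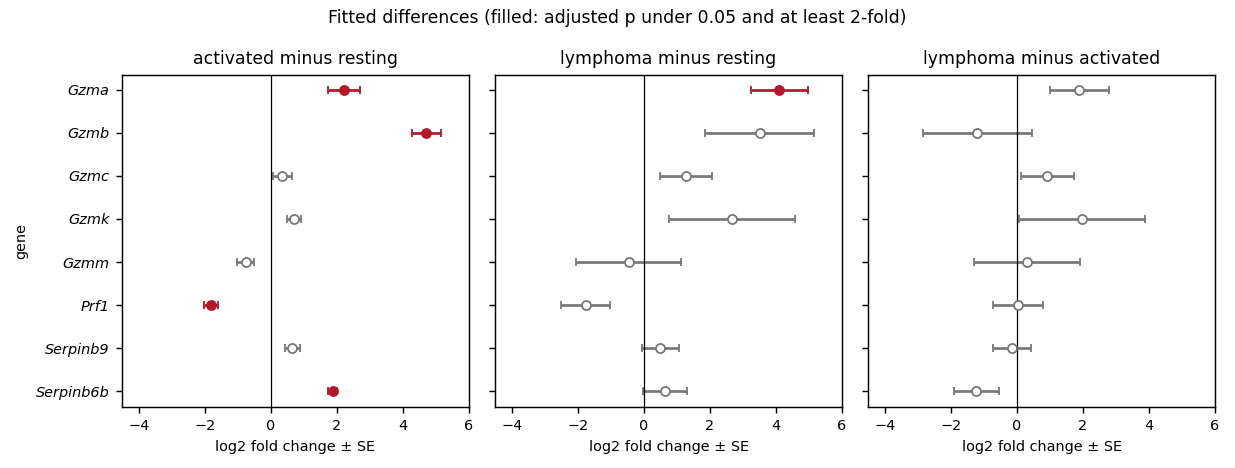
Fitted log2 difference (horizontal axis, with its SE as a bar) of the 8 tested members in the 3 comparisons; filled points passed an adjusted p under 0.05 and at least 2-fold. Gzma, Gzmb, Prf1 and Serpinb6b are filled for activated minus resting, Gzma alone for lymphoma minus resting, and no member for lymphoma minus activated, where bars are widest for Gzmk (1.91).

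Most tested members varied more between tumours than the typical gene. The SD of Gzmk over the 9 lymphomas was 3.65 log2 units, larger than that of 99.9% of the 11902 genes tested, whose median was 0.60. Gzmb, at 3.16, and Gzmm, at 3.04, exceeded 99.7% of genes. Gzma, at 1.65, exceeded 93.0%, and Serpinb9, at 1.04, 80.0%. Such spreads were not particular to the members: among genes of the other lists, picked after their values were seen, Klre1 had an SD of 3.42, Ifng 3.19, Klrd1 3.12, Klrk1 3.01 and Eomes 2.86 over the same lymphomas. Normal samples also varied in some members. Among activated samples the SD of Gzma was 0.98, larger than that of 97.6% of genes, and that of Gzmb 0.76, larger than that of 94.9%. Among resting samples the SD of Gzmb was 0.60, larger than that of 89.5%. Among resting samples the SD of Prf1 was 0.06, below that of most genes, where 7.49% were smaller.

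Read by tumour, the members that lay outside the range of the normal arrays differed. mPTCL 2 exceeded every activated array in 8 of 8 tested members, and mPTCL 6 in 6, all but Prf1 and Serpinb6b. Of all 11902 tested genes, 38.7% exceeded every activated array in mPTCL 2 and 35.4% in mPTCL 6. mPTCL 7 exceeded them in Gzma, Gzmb, Gzmk and Gzmm, mPTCL 8 in Gzma, Gzmk, Gzmm, Prf1 and Serpinb9, and mPTCL 9 in Gzma, Gzmb, Gzmk and Prf1. mPTCL 1 had high Gzmk and the highest Gzmm with Gzmb below activated cells. In mPTCL 7, 8, 9 and 1, the members above every activated array were 4, 5, 4 and 3 of 8. Of all tested genes, 38.5%, 37.8%, 39.3% and 40.3% were above them, and the counts were not tested against these shares. The counts of mPTCL 1, 2 and 6 include Gzmc, which passed the filter only through lymphomas. mPTCL 3 and 4 exceeded activated cells in Gzma while 6 of the 8 members lay below the activated range in each. mPTCL 5 exceeded the resting range in none of the 8 and lay below it in 5 and below the activated range in 7. Of all tested genes in mPTCL 5, 39.9% exceeded the resting range, 39.4% lay below it and 41.8% below the activated range. In mPTCL 3 and 4, 42.9% and 40.0% of all tested genes lay below the activated range.

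Other cell types differed between these tumours. mPTCL 5 had the highest neutrophil mean (11.73) and a B cell mean of 11.34, and mPTCL 4 the highest macrophage mean (10.55). mPTCL 2 had the highest NK cell mean, 11.18, against 7.46 to 7.84 in activated and 7.70 to 8.07 in resting cells. In mPTCL 7 the NK markers summed to 972, less than on any normal array (9738 or more). Since the sums on normal arrays follow Klrd1, this value does not show fewer NK cells. The macrophage markers of mPTCL 7 summed to 555, with C1qa, C1qb and C1qc at the floor. Its neutrophil markers summed to 776, against 548 to 733 on normal arrays. The same tumour had 15.45 for Gzma, 14.33 for Gzmb, 14.52 for Gzmk and 12.91 for Gzmm. mPTCL 3, with a neutrophil sum of 503, below every normal array, had 14.99 for Gzma beside a Gzmk signal at the floor. Its mast cell markers summed to 23185, the highest of all arrays, against 286 to 1632 on normal arrays. However, 7 of these 10 markers were at the floor in mPTCL 3, so few genes make up the sum. The mean of the list there, 6.57, lay within the 6.36 to 6.61 of activated cells. The macrophage markers of mPTCL 3 summed to 3356. The part of these cells in the member values was not tested.

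**Figure D5:**
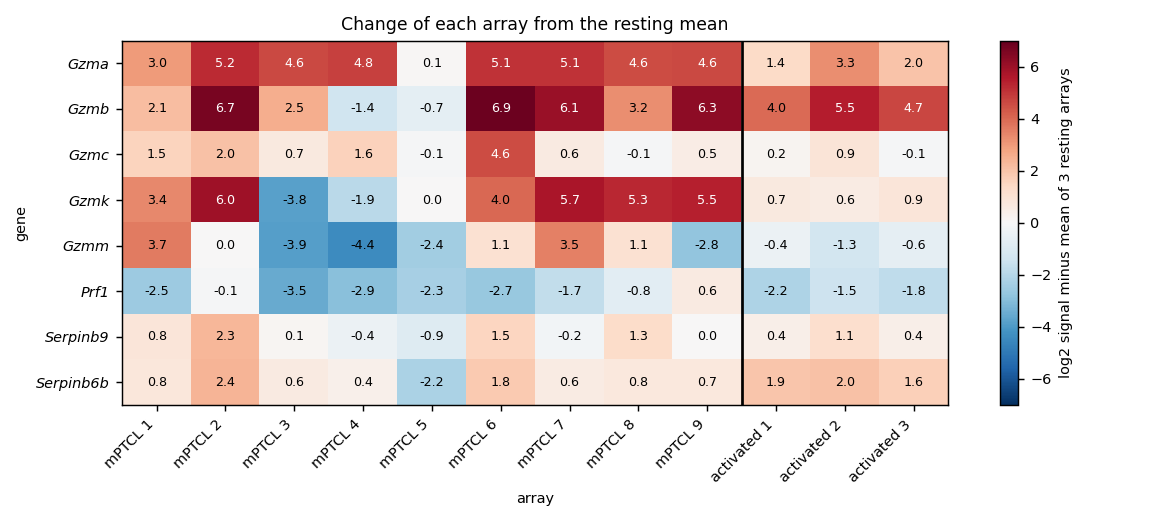
Log2 signal minus the mean of the 3 resting arrays for the 8 tested members (rows) on each lymphoma and activated array (columns), red for higher and blue for lower, with the value in each cell. Gzma is 0.08 in mPTCL 5 and higher in the other 8 lymphomas. Prf1 is above 0 in mPTCL 9 alone, -0.10 in mPTCL 2, lower in the other 7, and -1.48 to -2.16 in the activated samples.

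Members were compared with each other across the 9 lymphomas where their values were spread without a wide gap, which held for Gzmb, Gzmk, Gzmm, Prf1 and Serpinb9. All 10 pairs had a positive Pearson r, and none passed adjustment over the 10 pairs (2-sided exact permutation tests, 3 at an unadjusted p under 0.05 by either measure). Gzmk and Prf1 had r = 0.76 (exact permutation p = 0.0174, adjusted p = 0.134) and rho = 0.85 (p = 0.00607, adjusted p = 0.0607), and r was 0.62 without mPTCL 3 and 4. Gzmb and Gzmk had r = 0.74 (exact permutation p = 0.0268, adjusted p = 0.134) and rho = 0.72 (p = 0.0369, adjusted p = 0.144), and r was 0.58 without mPTCL 4 and 5. Gzmb and Gzmk passed without mPTCL 3 alone by r (0.89, exact permutation adjusted p = 0.0337) and not by rho (0.74, adjusted p = 0.153), and r was 0.50 when mPTCL 4 and 5 were left out as well. Gzmm and Prf1 were least related (r = 0.11, exact permutation p = 0.767). Without mPTCL 3 and 4 the r of Gzmm and Prf1 was -0.48, and without mPTCL 4 and 5 that of Gzmb and Gzmm was -0.0017. The other pairs stayed positive without the 2 arrays left out of each. All pairs come from the same 5 members and 9 arrays, so their shared sign is not independent evidence.

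Of the machinery that builds lytic granules, 15 genes were tested. Lyst, the lysosomal trafficking regulator whose loss causes the giant granules of beige mice, rose by 1.70 ± 0.11 on activation (limma adjusted p = 2.69e-04), the single call of 15. In lymphomas Lamp2, a lysosomal membrane protein, was 2.18 ± 0.36 higher than in resting cells (limma adjusted p = 0.00141) and 1.66 ± 0.35 higher than in activated cells (adjusted p = 0.00643). Igf2r, the mannose 6-phosphate receptor that carries granzymes to the granule, was lower in lymphomas than in resting cells (-2.61 ± 0.72, adjusted p = 0.0254) and in activated cells (-2.92 ± 0.72, adjusted p = 0.0135). Ap3b1, a subunit of the AP-3 sorting complex, was lower than in activated cells (-1.08 ± 0.20, adjusted p = 0.00285). No other gene of the 15 was called in any of the 3 comparisons.

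Of 12 tested genes of granule exocytosis, Sytl1, a partner of Rab27a in docking vesicles, rose by 2.22 ± 0.55 on activation (limma adjusted p = 0.0242), with 1 resting array at the floor. It was lower in lymphomas than in activated cells (-2.21 ± 0.69, adjusted p = 0.0377), with 5 lymphomas at the floor. No gene of this list was called between lymphomas and resting cells.

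Regulators of granzyme and perforin genes, 23 transcription factors, cytokine receptors and Notch receptors, had 11 called higher, 0 lower and 12 not called on activation. Their median was 0.90 against 0.02 for all genes, of which 8.45% were called higher and 4.23% lower. Il12rb2, part of the interleukin 12 receptor, rose by 4.61 ± 0.34, the transcription factor Bhlhe40 by 4.19 ± 0.55, Nfil3, a transcription factor of NK cell development, by 2.91 ± 0.33, and Il2ra, part of the interleukin 2 receptor, by 2.72 ± 0.39 (limma adjusted p at most 0.0034 for these 4). In lymphomas against resting cells 4 were higher and 2 lower, beside 7.03% and 6.84% of all genes. Bhlhe40 was 4.33 ± 0.57 higher and Notch2 1.70 ± 0.41 higher, while the cytokine receptor gene Il21r differed by -2.23 ± 0.25 and Stat5b, which relays interleukin 2, by -2.17 ± 0.47 (limma adjusted p at most 0.0141 for these 4). Against activated cells 1 was higher and 6 lower, beside 7.04% and 8.28% of all genes. Among the lower were Stat5b (-2.80 ± 0.46), Il12rb2 (-2.73 ± 0.75), Stat4 (-2.41 ± 0.56), which relays interleukin 12, and Il2rb, part of the interleukin 2 receptor (-1.91 ± 0.61). The limma adjusted p was at most 0.0409 for these 4. The T-box factor genes Tbx21 and Eomes, named for their known role and outside the naming rule, had 10.09 ± 2.18 and 8.91 ± 2.86 in lymphomas (SD, n = 9), 10.81 and 9.78 in activated cells and 9.34 and 10.57 in resting cells. Of the 2, Tbx21 was called higher on activation (1.47, limma adjusted p = 0.00275), and neither was called in a lymphoma comparison.

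Of 11 tested ligands and cytokines, the chemokine Xcl1 was lower in activated than in resting cells (-1.97 ± 0.34, limma adjusted p = 0.00713) and lower in lymphomas than in resting cells (-1.90 ± 0.52, adjusted p = 0.0243), and the other 10 were not called in any comparison. Of 9 other clade B serpins on the array, 4 were tested. Serpinb1a, which inhibits neutrophil elastase and other proteases, was 4.32 ± 0.98 higher in lymphomas than in resting cells (limma adjusted p = 0.00987), with 1 resting array at the floor. Its mean was 7.56 in activated and 6.00 in resting cells, a difference of 1.56 ± 0.79 that was not called. The neutrophil markers named above were high in 6 of the 9 lymphomas, and the part of neutrophils in the Serpinb1a values was not tested. The other 3 tested serpins were not called.

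Cell division genes, of which 14 were tested, were higher in activated cells for 12 and in lymphomas for 13 relative to resting cells, and none was called between lymphomas and activated cells. Mki67, a marker of cycling cells, was 4.17 ± 0.20 higher in activated than in resting cells. Genes whose signal followed a member most closely over the 15 arrays, among 11304 tested genes with ordinary names, are given as a description, and these arrays share the group differences. For Gzma they were Dnmt3b (r = 0.94), Chst11 (0.93), Srgap3 (0.90), Uhrf1 (0.89) and Urod (0.89), and for Gzmb they were Cdca7l (0.90), Srr (0.88), Fanci (0.87), Fdft1 (0.87) and Smc2 (0.87). For Prf1 they were Dolpp1 (0.86), Ndel1 (0.86), Smc6 (0.84), Zfp692 (0.84) and Ccdc66 (0.84). Across the same arrays Gzma correlated with Gzmb at 0.63 and with Prf1 at -0.27.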

How the data were processed

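Total RNA was measured on 1 Affymetrix array per sample. The deposited files hold linear intensity values. The authors made them with MAS5, run in Affymetrix Expression Console, with version 1.1 named for lymphomas alone, per the submitters' processing notes. An amplification kit for RNA is named for normal cells and not for lymphomas, per the labels' protocols. The deleted gene is not analysed here.

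Of 45101 probe sets, those listed with 1 gene symbol were used (34958, less controls; 932 had several symbols and 9211 none), and 34754 symbols were updated by gene identifier. A floor of 32 (5 after taking log2) was applied, so fold changes that involve the floor are understated. For each of 18193 genes the probe set of highest mean log2 signal was kept, and 11902 genes with at least 100 on at least 3 arrays were tested with limma 3.58.1 in R 4.3.3 (lmFit, eBayes with a trend), in the arrays of the groups compared. A call needed a Benjamini-Hochberg adjusted p under 0.05 over all tested genes and at least 2-fold. Simulated data with known changes served to test the fits.

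The members and gene lists were chosen with earlier results of these data known. All members were named, and of every other list at most the 4 called genes with the largest change per comparison; for Gzma, Gzmb and Prf1 also the 5 genes with the highest r. Relations used 2-sided exact permutation tests over 9 lymphomas. RefSeq promoters were matched by symbol for 10 of 10 members and aligned with Biopython 1.88. The alternatives were other floors and filters, normalisations, probe set rules and fits, a replicate block, and fits without single arrays or marker-rich lymphomas; the fits without lymphomas low in Cd3e were added after seeing the data. The main fits did not pair samples by replicate number. Deviations of same-numbered activated and resting arrays correlated at -0.01, 0.05 and -0.01. Over all genes and with 3 arrays per group, this cannot show whether same-numbered samples share a source. With the replicate block the SE for activated against resting cells was 0.22 for Gzmb and 0.33 for Gzma, against 0.44 and 0.47 without it.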

Additional observations from a re-analysis of the deposited data

Results flagged for a closer look

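Among 9 members with any spread over the 9 lymphomas, 4 had a highest or lowest tumour whose gap to the next passed Dixon's criterion at 95%. Chance flags about 1 in 20 groups, and the members share the same 9 arrays. Gzma was lowest in mPTCL 5, at 10.45 on the log2 scale, against 13.35 in the next tumour (gap 0.565 of the range). Serpinb6b was lowest in the same tumour, at 8.07, against 10.67 in the next (0.563). mPTCL 5 also had the highest neutrophil marker mean, 11.73, and a low Cd3e signal, 9.03, and the part of these in its member values was not tested. Gzmc was highest in mPTCL 6, at 9.68, against 7.12 in the next tumour (0.547). Gzme was highest in mPTCL 2, at 6.19, against 5.38 in the next (0.684), with the other 7 at the floor. The floor thus sets this gap and range, and both signals (73.1 and 41.5) are under the 100 required for testing.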

How the results depend on the processing

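Over the alternatives other than leaving out single arrays, 99 of 107 member values kept their direction and call for activated against resting cells, 114 of 123 for lymphomas against resting cells and 110 of 123 for lymphomas against activated cells. Members called for activated against resting numbered 4; they numbered 2 of 5 tested without probe sets that can match several transcripts, where Gzma, Gzmm and Prf1 were not tested, and 0 with all 15 arrays in 1 fit (397 genes called in all). Leaving out each array gave 3 to 4 members and 1267 to 1505 genes, against 1510. By the adjusted p alone 3678 genes were called and Gzmk joined. Gzma lost its call with no filter (adjusted p = 0.0640), and Gzmm gained one with centring on the array median (-1.04, adjusted p = 0.0228). That centring moved the median of all genes to -0.25 and the split of calls to 678 higher and 1148 lower, from 1006 and 504. Quantile normalisation gave 843 and 653. The replicate block gave 4 members and 1431 genes, and changed no call of a member.

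For lymphomas against resting cells, 1 member was called; 0 of 5 tested without multi-transcript probe sets, where Gzma was not tested, 3 with array weights (2715 genes, with Gzmb and Prf1 added), 3 without the lymphomas high in neutrophil markers and 4 without those low in Cd3e (2594 genes). Leaving out each array gave 1 to 2 members and 778 to 1850 genes, against 1651. For lymphomas against activated cells, 0 members were called; 2 with array weights (2946 genes; Gzma and Serpinb6b), 1 without the lymphomas high in neutrophil markers, 1 without those high in B cell markers and 2 without those low in Cd3e (2956 genes). Leaving out each array gave 0 to 1 member and 916 to 2167 genes, against 1824. Centring split those calls 1516 higher and 455 lower, quantile normalisation 1036 and 883, against 838 and 986, with a median of all genes of 0.31 after centring. Centring split the calls of lymphomas against resting cells 799 and 593. For the fits without multi-transcript probe sets or without lymphomas high in neutrophil or B cell markers, the number of all genes called is not given here. Their member counts, in any of the 3 comparisons, therefore cannot be set against a share of all genes.

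Changes of sign were among uncalled values, and the cause was not tested. Against activated cells, Serpinb9 was 0.23 with centring, 0.0054 without the lymphomas high in B cell markers and 0.30 without those low in Cd3e. Prf1 was -0.15 with the mean of probe sets and -0.84 without the lymphomas high in neutrophil markers. Gzmb was 0.45 in the same fit and 0.49 without those low in Cd3e. Against resting cells, Gzmm was 0.25 and 1.097 in the same fits. Leaving out each array moved Gzmm from -0.97 to 0.037 against resting cells, and against activated cells moved Gzmm from -0.21 to 0.80, Prf1 from -0.26 to 0.25 and Serpinb9 from -0.38 to 0.10. Relations between members gave 0 pairs past adjustment under other floors, quantile normalisation and the mean of probe sets, and 0 to 1 without each lymphoma. Absent detection calls, signals near the floor limit what can be said of Gzmc, Gzmd and Gzme.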
